A study of Arabidopsis thaliana with 36 samples.

Results

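Jasmonates are lipid hormones that plants make after wounding, insect attack and other stress. Synthesis starts in the plastid, where lipoxygenases oxidise linolenic acid, allene oxide synthase and allene oxide cyclase turn the product into the cyclic precursor OPDA, and OPDA moves to the peroxisome, where it is reduced and shortened. The enzyme JAR1 then joins jasmonic acid to isoleucine, and the conjugate makes the receptor COI1 remove JAZ repressors, which frees MYC transcription factors. In leaves the VSP genes, which encode vegetative storage proteins of the acid phosphatase family, are classic targets of this signal.

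The 10 genes described here were taken by locus code from 28775 genes of Arabidopsis thaliana. They are the lipoxygenase genes LOX2 (AT3G45140), LOX3 (AT1G17420) and LOX4 (AT1G72520), the allene oxide synthase gene AOS (AT5G42650) and the cyclase genes AOC1 (AT3G25760) and AOC2 (AT3G25770). The others are the OPDA reductase gene OPR3 (AT2G06050), the conjugating enzyme gene JAR1 (AT2G46370), and the storage protein genes VSP1 (AT5G24780) and VSP2 (AT5G24770). All 10 were in the count table and all 10 passed the filter on low counts, so none was lost.

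Poly(A) RNA was sequenced from shoots of opt3-2, shoots of wild type (Col-0, written WT below), roots of opt3-2 and roots of WT. The gene mutated in opt3-2, OPT3, encodes a transporter that loads iron into the phloem; a single allele was used, and no complemented line was analysed here. Every group, WT included, had spent 72 h in 20 µM CdCl2 after 11 days on plates and 22 days in hydroponic medium, so no value below measures the effect of cadmium. Each group had 3 biological replicates of 3 to 4 pooled plants, each with 3 technical replicates that were summed into 1 library, which gives 12 libraries.

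Total counts ran from 21262406 to 29692680 in opt3-2 shoots and from 27229534 to 33221855 in WT shoots, and from 22449113 to 25141843 in opt3-2 roots and from 35523985 to 36484138 in WT roots. OPT3 had 17.6 to 24.1 CPM (read counts scaled to a common library size) in opt3-2 shoots against 321 to 389 CPM in WT shoots, and 4.13 to 9.02 CPM in opt3-2 roots against 38.4 to 47.9 CPM in WT roots. The tissues matched their labels: the Rubisco gene RBCS1A had 16.7 to 30.8 CPM in WT roots and 5918 to 6349 CPM in WT shoots. PYK10, an abundant root glucosidase gene, had 2990.3 to 3303 CPM in WT roots and 74.9 to 85.1 CPM in WT shoots. These are whole organs, in which fewer cells of a type and less RNA per cell cannot be told apart.

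The members lie on chromosomes 1, 2, 3 and 5 of the TAIR10.1 assembly, and none overlaps another annotated gene on either strand. AOC1 (chromosome 3, 9403779 to 9405338, plus strand) and AOC2 (9406669 to 9408071, plus strand) are neighbours 1330 bases apart. VSP2 (chromosome 5, 8500468 to 8502224, minus strand) and VSP1 (8507590 to 8509201, minus strand) lie 5365 bases apart. The coding sequences were 90.4% identical between VSP1 and VSP2 (719 of 795 aligned bases), 90.3% between AOC1 and AOC2 (688 of 762) and 81.1% between LOX3 and LOX4 (2227 of 2747). Few stretches of 50 bases were shared with another gene's transcript: 5 of 1269 in VSP1, 5 of 1459 in VSP2, 24 of 1142 in AOC1 and 1 of 1251 in AOC2. The AOC1 and AOC2 stretches are shared with AOC3 (AT3G25780), another cyclase gene. How reads that map to several places were counted is not given in the sources used here, so exact splits within these families are uncertain.

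The 250 bases before the annotated start of VSP1, VSP2 and LOX2 are shown because VSP1 and VSP2 are neighbouring copies with unlike changes in shoots, and LOX2 is the most abundant member there. They are read 5′ to 3′ on the gene's strand from the RefSeq TAIR10.1 genome, and capitals mark a CACATG or AACGTG hexamer on either strand, variants of the CACGTG G-box that MYC factors bind.
VSP1, chr5:8509202-8509451, minus strand: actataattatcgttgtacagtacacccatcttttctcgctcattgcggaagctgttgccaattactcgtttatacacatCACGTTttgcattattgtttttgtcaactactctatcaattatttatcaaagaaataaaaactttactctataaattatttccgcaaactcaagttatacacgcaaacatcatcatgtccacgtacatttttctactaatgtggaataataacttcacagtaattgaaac
VSP2, chr5:8502225-8502474, minus strand: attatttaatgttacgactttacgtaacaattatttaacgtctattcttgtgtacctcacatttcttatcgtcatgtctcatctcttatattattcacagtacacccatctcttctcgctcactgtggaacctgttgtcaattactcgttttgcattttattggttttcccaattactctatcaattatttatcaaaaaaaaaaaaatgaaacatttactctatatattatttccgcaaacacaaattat
LOX2, chr3:16524995-16525244, plus strand: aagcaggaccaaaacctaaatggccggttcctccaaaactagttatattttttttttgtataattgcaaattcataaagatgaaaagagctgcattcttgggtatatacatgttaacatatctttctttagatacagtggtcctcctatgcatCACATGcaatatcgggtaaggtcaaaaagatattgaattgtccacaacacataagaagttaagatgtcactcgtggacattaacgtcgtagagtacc

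The longest run common to the VSP1 and VSP2 windows is tactctatcaattatttatcaaa, 23 bases that begin 142 bases before the start in VSP1 and 76 bases before it in VSP2. VSP1 holds 1 AACGTG match on its reverse strand, 170 to 165 bases before the start, and the VSP2 window holds none of the 3 hexamers. Over all members, CACGTG was found in 1 of 10 windows (AOS) against 6.49% of 27443 windows of protein-coding genes, CACATG in 3 (LOX2, LOX3 and JAR1) against 11.1%, and AACGTG in 3 (LOX4, AOC1 and VSP1) against 7.54%. GCCGCC, the core bound by ERF factors, was in none of the member windows and in 1.87% of all windows. No member window holds more than 1 match, so none overlap. A match is a description of letters and not of binding.

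In shoots, 4 of the 10 genes fell in opt3-2: LOX2, OPR3, VSP1 and VSP2. VSP1 stood 17.1-fold lower, OPR3 3.61-fold, VSP2 2.07-fold and LOX2 1.80-fold. All 10 fitted differences were below 0, with a median log2 fold change of -0.95 against 0.00 over the 21887 genes tested. In the same test 43.9% of all genes were called, 22.6% lower and 21.3% higher. The share of members called in either direction, 4 of 10, was thus near the background. The share called lower was above it, but 10 genes fix such a share only loosely. Leaving out single libraries gave 3 to 9 members lower. No member was called higher by edgeR (quasi-likelihood test, Benjamini-Hochberg adjusted p below 0.05), at an unadjusted p under 0.05, by DESeq2 or by limma-voom: the count was 0 in each. Marker genes of other cell types differed between these shoots as well. The 5 phloem markers summed to 1179 to 1210.1 CPM in opt3-2 shoots and 766 to 896 CPM in WT shoots, with 4 of 5 called higher. The 4 guard cell markers summed to 73.6 to 76.2 CPM in opt3-2 shoots and 52.2 to 60.7 CPM in WT shoots, with 3 called higher. The 7 floral markers summed to 6.40 to 19.5 CPM in opt3-2 shoots and 12.4 to 25.4 CPM in WT shoots, with AP3 and SEP3 called lower. The 5 xylem markers summed to 109 to 169.6 CPM in opt3-2 shoots and 119 to 136 CPM in WT shoots, with 1 called higher and 2 lower. The part of these cell types in the results was not tested.

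**Figure D1:**
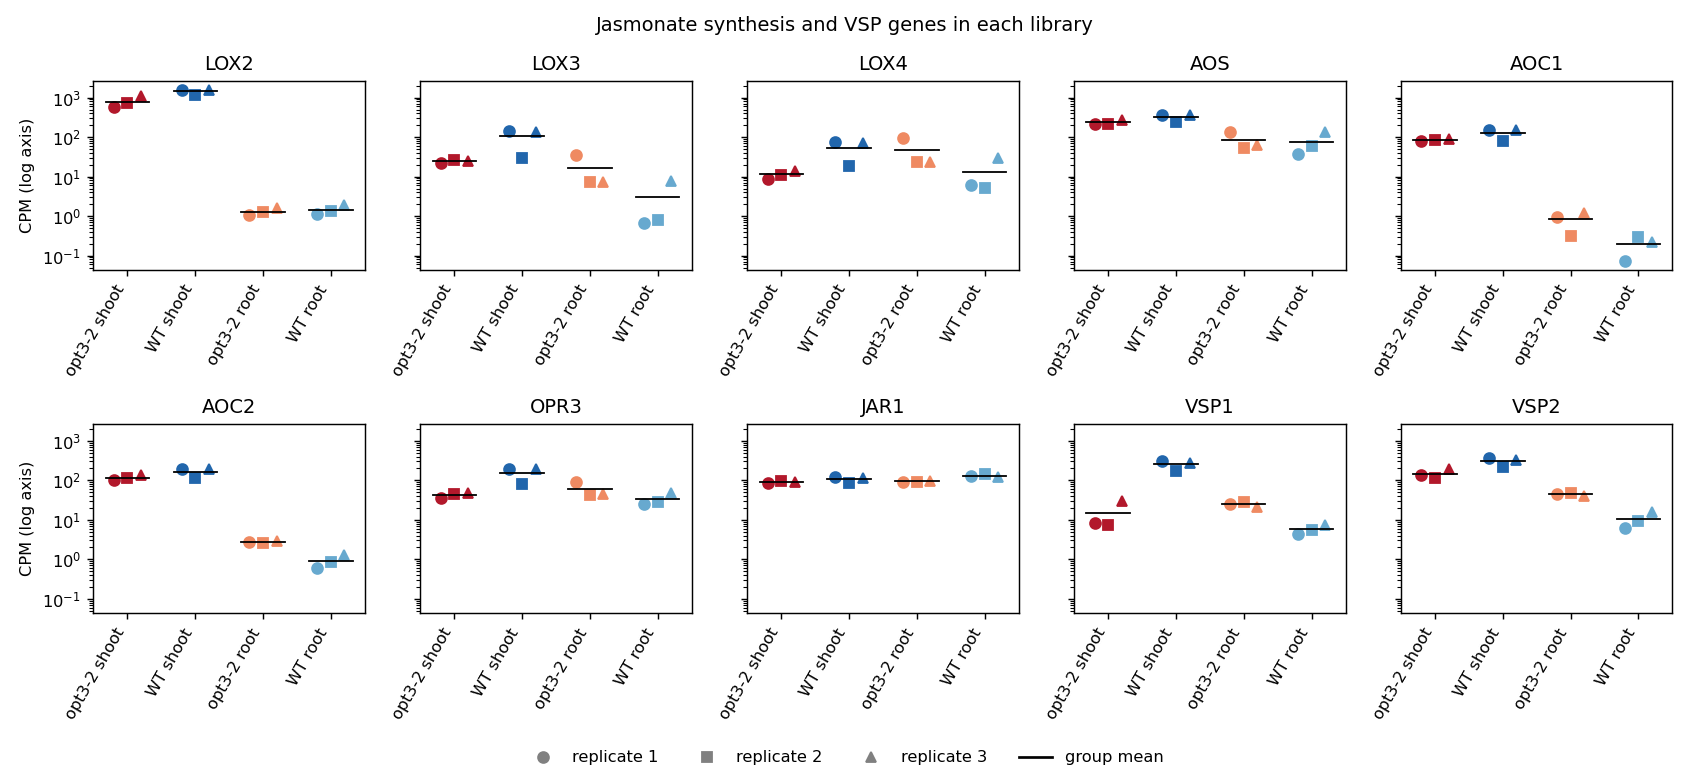
CPM (log axis) of the 10 genes in each of the 12 libraries, with opt3-2 shoots, WT shoots, opt3-2 roots and WT roots from left to right; symbols mark replicates and lines the means of 3. VSP1 in opt3-2 shoots (7.43 to 29.2 CPM) lies far below WT shoots (177 to 316 CPM), and WT shoot replicate 2 is the lowest WT shoot library in all 10 panels.

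VSP1 had 8.30, 7.43 and 29.2 CPM in opt3-2 shoot replicates 1, 2 and 3, against 316, 177 and 278 CPM in WT shoots. Every opt3-2 library was below every WT library, and replicate 3 was the highest of the opt3-2 shoots. The log2 fold change was -4.10 ± 0.50 (SE, n = 3 each; edgeR adjusted p = 1.44e-04), and it lay between -5.02 and -3.79 when single libraries were left out.

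VSP2, whose product shows acid phosphatase and anti-insect activity, had 137, 112 and 194 CPM in opt3-2 shoots against 369, 222 and 327 CPM in WT shoots. The groups did not overlap, but the gap between the highest opt3-2 and the lowest WT library was small. The log2 fold change was -1.05 ± 0.31 (edgeR adjusted p = 0.020). It was no longer called without opt3-2 replicate 1 (adjusted p = 0.0689), opt3-2 replicate 2 (0.0726), WT replicate 1 (0.0718) or WT replicate 3 (0.0569), all in edgeR.

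OPR3 encodes the peroxisomal reductase of OPDA. It had 36.0, 43.9 and 48.2 CPM in opt3-2 shoots and 193, 80.4 and 188 CPM in WT shoots. WT replicate 2 was well below the other WT libraries and still above every opt3-2 library. OPR3 fell by 1.85 ± 0.41 on the log2 scale (edgeR adjusted p = 0.0048).

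LOX2, the lipoxygenase that supplies much of the jasmonate of wounded leaves, had 592, 722 and 1077 CPM in opt3-2 shoots and 1594, 1158 and 1557 CPM in WT shoots. The nearest libraries of the groups, opt3-2 replicate 3 and WT replicate 2, were close but did not overlap. The log2 fold change was -0.85 ± 0.21 (edgeR adjusted p = 0.00723). LOX2 lost this call under 1 of 21 alternatives, the columns with run suffix 2 or 3 (adjusted p = 0.0538).

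The other 6 genes did not pass in shoots. LOX3 and LOX4, lipoxygenases that also act in flower development, had the largest fitted differences among them. LOX3 had 22.6, 26.2 and 24.8 CPM in opt3-2 shoots and 147, 30.3 and 135 CPM in WT shoots (log2 -2.08 ± 0.88, edgeR adjusted p = 0.0826). LOX4 had 8.62, 11.2 and 14.2 CPM in opt3-2 shoots and 74.3, 19.0 and 69.4 CPM in WT shoots (log2 -2.26 ± 0.85, edgeR adjusted p = 0.0535). In both genes the groups did not overlap, and WT replicate 2 lay nearer to the opt3-2 libraries than to the other WT libraries. Both fell without WT shoot replicate 2 (edgeR adjusted p = 0.0473 for LOX3 and 0.0363 for LOX4) and without WT root replicate 3 (0.0367 and 0.0239), which enters the shared estimate of spread. LOX4 also fell without opt3-2 root replicate 1 (adjusted p = 0.0331). With all 6 shoot libraries fitted alone both were called lower (edgeR adjusted p = 0.0437 for LOX3 and 0.0293 for LOX4). DESeq2 on all libraries called LOX4 lower (adjusted p = 0.020).

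The cyclase genes had the same layout with smaller differences. AOC1 had 80.0, 83.7 and 90.2 CPM in opt3-2 shoots and 148, 82.1 and 151 CPM in WT shoots. AOC2 had 102, 113 and 137 CPM in opt3-2 shoots and 193, 112 and 196 CPM in WT shoots. In both, WT replicate 2 fell inside the range of the opt3-2 libraries, and the adjusted p in edgeR was 0.087 for AOC1 and 0.0728 for AOC2.

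AOS had 216, 220.1 and 272 CPM in opt3-2 shoots and 354, 248 and 358 CPM in WT shoots (edgeR adjusted p = 0.465). JAR1 had 86.8, 94.9 and 89.1 CPM in opt3-2 shoots and 120, 85.3 and 112 CPM in WT shoots (edgeR adjusted p = 0.0995). For both genes the groups overlapped.

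WT shoot replicate 2 was the lowest WT shoot library for all 10 genes, with a median of -0.77 on the log2 scale against the mean of the other 2; over all genes tested it was the lowest in 38.4% of cases. Without it, 9 of the 10 genes fell in opt3-2 shoots in place of 4, with LOX3, LOX4, AOC1, AOC2 and JAR1 added and AOS the exception. In that fit 44.4% of all genes were called, 22.8% lower, against 43.9% and 22.6% with all libraries. OPT3 itself had 321 CPM in that library, also the lowest of the WT shoots. Its summed phloem (896 CPM), guard cell (60.7 CPM), xylem (136 CPM) and floral markers (25.4 CPM) were the highest of the WT shoots. In opt3-2 shoots replicate 3 was the highest library for 8 of the 10 genes. That library had the lowest phloem (1179 CPM), xylem (109 CPM) and floral sums (6.40 CPM) of the opt3-2 shoots, but not the lowest guard cell sum. The part of these markers in the replicate differences was not tested.

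In roots, 4 of the 10 genes rose in opt3-2 and 1 fell. VSP1 and VSP2 were 4.32-fold and 4.23-fold higher, AOC1 and AOC2 4.02-fold and 3.02-fold higher, and JAR1 was 1.40-fold lower. Over all genes tested 39% were called, 17.5% higher and 21.5% lower. The median log2 fold change of the members was 1.71, against -0.01 for all genes. PYK10 was lower in opt3-2 roots (2058 to 2239 CPM) than in WT roots (2990.3 to 3303 CPM), and the 3 root markers, most of whose sum is PYK10, summed to 2315 to 2530 CPM in opt3-2 roots and 3214 to 3560 CPM in WT roots. The other root markers did not pass: PRX72 had 236 to 266 CPM in opt3-2 roots and 202 to 226 CPM in WT roots (log2 0.23 ± 0.10, edgeR adjusted p = 0.088), and CASP1 had 18.7 to 25.2 CPM in opt3-2 roots and 19.1 to 31.2 CPM in WT roots (log2 -0.15 ± 0.18, adjusted p = 0.55). Of the 5 xylem markers 2 were called higher in opt3-2 roots, where they summed to 288 to 320 CPM, against 205 to 281 CPM in WT roots. The part of these markers in the results was not tested.

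VSP1 had 24.8, 28.7 and 21.0 CPM in opt3-2 roots and 4.34, 5.40 and 7.51 CPM in WT roots. VSP2 had 44.8, 47.2 and 39.9 CPM in opt3-2 roots and 6.05, 9.40 and 15.8 CPM in WT roots. Every opt3-2 library was above every WT library in both genes. The log2 fold changes were 2.11 ± 0.49 for VSP1 (edgeR adjusted p = 0.00707) and 2.08 ± 0.34 for VSP2 (edgeR adjusted p = 9.16e-04). With run suffixes 2 and 3, which leave WT roots 1 library, they were 1.79 for VSP1 and 1.46 for VSP2. The spread of WT roots cannot be measured in that fit.

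AOC2 had 2.73, 2.55 and 2.89 CPM in opt3-2 roots and 0.603, 0.846 and 1.26 CPM in WT roots. These are low levels, from 69, 74 and 82 counts in opt3-2 roots and 25, 36 and 50 counts in WT roots, and the groups did not overlap. The log2 fold change was 1.60 ± 0.34 (edgeR adjusted p = 0.0044). AOC2 lost this call under 3 of 21 alternatives (adjusted p 0.0935 with limma-voom, 0.0986 with the first technical replicate and 0.185 with run suffixes 2 and 3), and under none that leaves out 1 library.

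AOC1 was lower still, at 0.949, 0.310 and 1.24 CPM in opt3-2 roots and 0.0724, 0.305 and 0.226 CPM in WT roots, which rest on 24, 9 and 35 counts and on 3, 13 and 9 counts. Its second opt3-2 library barely exceeded the second WT library. AOC3, which shares 24 of 1142 stretches with AOC1, had 5225, 2596 and 3366 counts in opt3-2 roots. In WT roots it had 1948, 2957 and 6408 counts. Whether reads of AOC3 entered these small AOC1 counts was not tested. AOC1 had a log2 fold change of 2.01 ± 0.68 (edgeR adjusted p = 0.0396), and 11 of 21 alternatives ended that call, among them 7 of the 12 that leave out 1 library. Those without an opt3-2 root or WT root library gave adjusted p of 0.101 (opt3-2 replicate 1), 0.156 (opt3-2 replicate 3), 0.12 (WT replicate 1), 0.0521 (WT replicate 2) and 0.0914 (WT replicate 3) in edgeR.

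JAR1 had 92.8, 91.8 and 96.3 CPM in opt3-2 roots and 127, 141 and 124 CPM in WT roots, without overlap. It was the member that varied least between replicates in each group but WT shoots, and it fell by 0.48 ± 0.10 on the log2 scale (edgeR adjusted p = 0.00325). With run suffixes 2 and 3, which leave WT roots 1 library, the log2 fold change was -0.42.

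The remaining 5 genes did not pass in roots. LOX3 had 36.2, 7.38 and 7.16 CPM in opt3-2 roots and 0.675, 0.822 and 7.89 CPM in WT roots. LOX4 had 94.7, 22.9 and 23.6 CPM in opt3-2 roots and 6.10, 5.10 and 28.9 CPM in WT roots. In both genes opt3-2 replicate 1 stood far above the other opt3-2 libraries, and WT replicate 3 far above the other WT libraries. The log2 fold changes were 2.44 ± 1.00 for LOX3 (edgeR adjusted p = 0.0789) and 1.82 ± 0.81 for LOX4 (edgeR adjusted p = 0.103). DESeq2 called LOX3 higher (log2 2.47, adjusted p = 0.0447).

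OPR3 had 91.6, 42.6 and 43.9 CPM in opt3-2 roots and 25.5, 27.7 and 46.8 CPM in WT roots. AOS had 138, 54.4 and 63.7 CPM in opt3-2 roots and 38.0, 59.3 and 131 CPM in WT roots. The same libraries, opt3-2 replicate 1 and WT replicate 3, were the highest of their groups, and the groups overlapped in both genes. MYC2, the transcription factor gene that acts above this set, had 272, 108 and 126 CPM in opt3-2 roots and 73.5, 116 and 271 CPM in WT roots, with the same 2 libraries highest.

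Without WT root replicate 3, LOX3 (log2 4.47, edgeR adjusted p = 0.0156) and LOX4 (3.06, adjusted p = 0.0181) rose in opt3-2 roots, AOC1 was no longer called (adjusted p = 0.0914), and 5 members were called higher, with 16.1% of all genes called higher in that fit. Without opt3-2 root replicate 1 the log2 fold change was 1.23 for LOX3 and 0.80 for LOX4. LOX2 was scarce in roots, with 1.07, 1.24 and 1.59 CPM in opt3-2 and 1.16, 1.34 and 1.91 CPM in WT, and its groups overlapped.

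**Figure D2:**
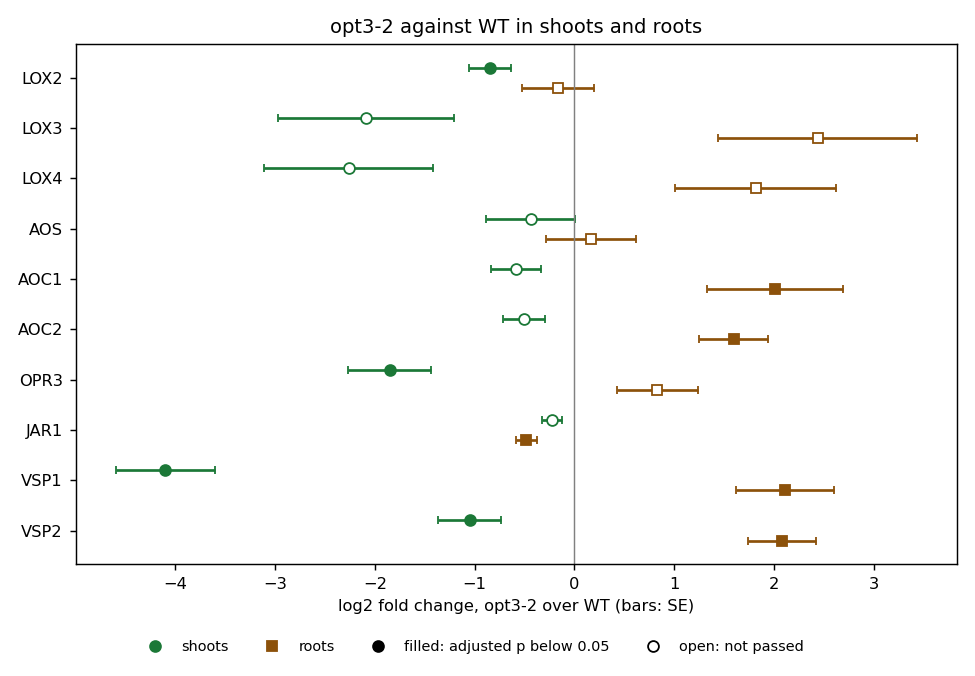
Log2 fold change of opt3-2 over WT (horizontal axis, bars are SE, n = 3 libraries per group) for each gene in shoots (circles) and roots (squares), filled where the edgeR adjusted p was below 0.05. All 10 shoot values lie left of 0, from -4.10 for VSP1 to -0.23 for JAR1, and 8 of 10 root values lie right of it.

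The difference between tissues was tested directly as the opt3-2 minus WT difference in roots minus that in shoots. It was above 0 and passed for 7 of the 10 genes: VSP1, VSP2, AOC1, AOC2, OPR3, LOX3 and LOX4. Over all genes 48.2% passed, 24.2% in that direction and 24% in the other. The largest was VSP1 (6.21 ± 0.69 on the log2 scale, edgeR adjusted p = 6.76e-05), then LOX3 (4.52 ± 1.33, adjusted p = 0.0178), LOX4 (4.08 ± 1.17, adjusted p = 0.0159) and VSP2 (3.13 ± 0.46, adjusted p = 3.34e-04). LOX3 and LOX4 were thus called for the difference between tissues while neither tissue alone passed in the main edgeR fit. LOX3 was lost without opt3-2 root replicate 1 (edgeR adjusted p = 0.0561) and AOC1 without opt3-2 root replicate 3 (adjusted p = 0.0579). Both were also lost with limma-voom (adjusted p = 0.0537 for LOX3 and 0.15 for AOC1). AOC1 was lost with the first technical replicate alone as well (edgeR adjusted p = 0.318). With run suffixes 2 and 3, which leave WT roots 1 library, LOX3 was at 2.93, LOX4 at 2.62 and OPR3 at 1.99. AOC1 was at 3.41 and AOC2 at 1.51 in that fit. LOX2 (0.68 ± 0.42), AOS (0.61 ± 0.64) and JAR1 (-0.26 ± 0.15) did not pass, though LOX2 did without opt3-2 shoot replicate 3 (0.96, edgeR adjusted p = 0.029). Of the members only VSP1 and VSP2 were called in both tissues, and in opposite directions. The count called below 0 was 0 in edgeR, 0 at an unadjusted p under 0.05, and 0 in DESeq2 and limma-voom.

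Between tissues of WT, 9 of the 10 genes were lower in roots and JAR1 was higher, against 78% of all genes called, 38.6% lower and 39.5% higher. These comparisons use the same libraries as the ones above. LOX2 averaged 1.47 ± 0.39 CPM in WT roots and 1436 ± 242 CPM in WT shoots (SD, n = 3 each; log2 -9.93 ± 0.32, SE, edgeR adjusted p = 6.64e-11). AOC1 differed almost as much, with 0.201 ± 0.119 CPM in WT roots and 127 ± 38.7 CPM in WT shoots. JAR1 averaged 131 ± 9.07 CPM in WT roots and 106 ± 18.0 CPM in WT shoots (log2 0.31 ± 0.10, edgeR adjusted p = 0.0152), a call lost under 3 of 21 alternatives: without WT root replicate 2 (adjusted p = 0.0626), with only the 6 libraries compared (0.0574) and with run suffixes 2 and 3 (0.0838). For LOX4 the WT call (log2 -2.02 ± 0.81, edgeR adjusted p = 0.0419) was lost under 11 of 21 alternatives, and its groups overlapped.

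In opt3-2, 5 genes were lower in roots than in shoots (LOX2, AOS, AOC1, AOC2 and VSP2) and LOX4 was higher, against 84.6% of all genes called, 41% lower and 43.6% higher. VSP1 averaged 24.8 ± 3.87 CPM in opt3-2 roots and 15.0 ± 12.3 CPM in opt3-2 shoots and did not pass (log2 0.73 ± 0.47, edgeR adjusted p = 0.172). In WT the same gene averaged 5.75 ± 1.61 CPM in roots and 257 ± 72.1 CPM in shoots (log2 -5.48 ± 0.53, edgeR adjusted p = 3.88e-06). OPR3 also did not pass between tissues in opt3-2, with 59.4 ± 27.9 CPM in roots and 42.7 ± 6.22 CPM in shoots. LOX4 had 47.0 ± 41.3 CPM in opt3-2 roots and 11.3 ± 2.77 CPM in opt3-2 shoots; its call was near the threshold (edgeR adjusted p = 0.0428). That call was lost under 9 of 21 alternatives, 5 of them fits without 1 library, and without opt3-2 root replicate 1 the adjusted p was 0.248.

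Levels of different genes were compared as CPM per kilobase of exon in the longest annotated transcript. In opt3-2 shoots LOX2 led with 250.1 ± 78.9 CPM per kilobase, above AOS with 116 ± 15.4, VSP2 with 97.9 ± 27.9 and AOC2 with 90.4 ± 13.8. AOC1 (71.0), JAR1 (38.8), OPR3 (27.3), VSP1 (11.4), LOX3 (7.96) and LOX4 (3.72) followed. Replicate ranges of neighbours overlapped among AOS, VSP2 and AOC2 and between VSP1 and LOX3, and nowhere else in that order. In WT shoots LOX2 led with 451 ± 75.9 CPM per kilobase, followed by VSP2 with 203 ± 50.3 and VSP1 with 195 ± 54.7. AOS (157), AOC2 (128), AOC1 (106), OPR3 (98.6), JAR1 (45.3), LOX3 (33.8) and LOX4 (17.8) came next. In WT shoots neighbours overlapped except LOX2 above VSP2 and, by a narrow gap, OPR3 above JAR1. VSP1 thus ranked 8 of 10 in opt3-2 shoots and 3 of 10 in WT shoots.

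The order in roots was another one. In opt3-2 roots AOS (42.1 ± 22.7 CPM per kilobase), JAR1 (40.2 ± 1.00), OPR3 (38.0 ± 17.9) and VSP2 (29.2 ± 2.45) were the highest, with overlapping replicate ranges from each to the next, and LOX2 had the lowest mean (0.408 ± 0.083), within the replicate range of AOC1 (0.261 to 1.04). In WT roots JAR1 (56.1 ± 3.89), AOS (37.5 ± 24.0) and OPR3 (21.3 ± 7.49) led and VSP2 had 6.90 ± 3.27. AOC1 was the lowest there (0.169 ± 0.099). AOC3, a further cyclase gene that is not a member, had 207, 89.5 and 119 CPM in opt3-2 roots and 47.0, 69.5 and 161 CPM in WT roots, far more than AOC1 or AOC2 there.

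The near copies were compared by the ratio of their CPM within each library. VSP2 over VSP1 was 16.5, 15.0 and 6.64 in opt3-2 shoots and 1.17, 1.26 and 1.18 in WT shoots. All 3 opt3-2 shoot libraries were above all WT shoot libraries, and the mean difference was 3.30 on the log2 scale. An exact two-sided permutation test gave p = 0.1, the smallest that 3 against 3 libraries allow (0.3 after Benjamini-Hochberg adjustment over 6 such tests). In roots the same ratio was 1.81, 1.64 and 1.90 in opt3-2 and 1.39, 1.74 and 2.1003 in WT (exact permutation p = 0.8). The root ratios of the groups overlapped, with a mean difference of 0.05 on the log2 scale.

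AOC2 over AOC1 was 1.28, 1.35 and 1.52 in opt3-2 shoots and 1.31, 1.36 and 1.303 in WT shoots (exact permutation p = 0.7). LOX3 over LOX4 was 2.63, 2.34 and 1.75 in opt3-2 shoots and 1.98, 1.60 and 1.95 in WT shoots (exact permutation p = 0.3). In roots that ratio was 0.382, 0.323 and 0.304 in opt3-2 and 0.111, 0.161 and 0.273 in WT (exact permutation p = 0.1, 0.3 adjusted). LOX3 was thus above LOX4 in every shoot library and below it in every root library. A mean difference of 0.98 on the log2 scale separated the root groups.

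**Figure D3:**
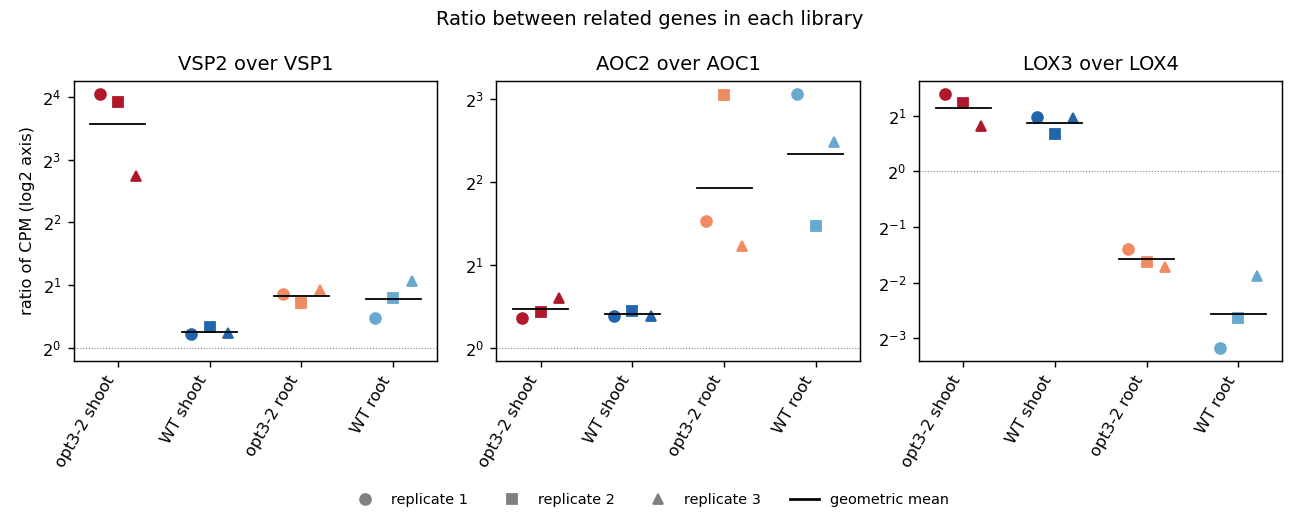
Ratio of CPM (log2 axis) between VSP2 and VSP1, AOC2 and AOC1, and LOX3 and LOX4 in each of the 12 libraries, opt3-2 left of WT within each tissue; lines are geometric means of 3. VSP2 over VSP1 reaches 6.64 to 16.5 in opt3-2 shoots and stays between 1.17 and 2.1003 in every other library.

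Other genes of the pathway and relatives of its enzymes were chosen with earlier results of these data known. They were grouped in lists by role. Their counts stand beside the shares of all genes called, 21.3% higher and 22.6% lower in opt3-2 shoots and 17.5% higher and 21.5% lower in opt3-2 roots. Among 3 lipoxygenase genes outside the set, whose part in jasmonate synthesis was not tested, LOX5 fell in opt3-2 shoots (log2 -0.88 ± 0.09). In opt3-2 roots LOX5 (0.65 ± 0.07) and LOX6 (0.35 ± 0.09) rose. LOX6 did not pass in shoots (-0.21 ± 0.09, edgeR adjusted p = 0.0831), and LOX1 passed in neither tissue. The list labelled plastid supply mixes desaturase, cyclase, lipase and lyase genes and is not limited to plastid enzymes. In it 7 of 9 genes were tested, and the lipases DAD1 and DGL had too few counts. Of the 7 tested, 5 fell and 1 rose in opt3-2 shoots and 3 rose in opt3-2 roots. AOC3 fell in shoots (log2 -2.87 ± 0.68, edgeR adjusted p = 0.00688). So did HPL1, a gene named for hydroperoxide lyase (-1.27 ± 0.21), and the fatty acid desaturase gene FAD3 (-0.87 ± 0.21). The desaturase gene FAD7 rose in roots (0.67 ± 0.13) and did not pass in shoots (-0.03 ± 0.13, edgeR adjusted p = 0.857). The desaturase gene FAD8 fell little in shoots (-0.30 ± 0.10, edgeR adjusted p = 0.0328).

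The peroxisome list went the other way in shoots: 7 of 10 genes rose and the median log2 fold change was 0.35. They include PXA1, the importer of OPDA (0.33 ± 0.05), the acyl-CoA oxidase gene ACX2 (0.55 ± 0.07) and AIM1 of beta-oxidation (0.38 ± 0.05). These enzymes serve fatty acid breakdown in general as well as jasmonate synthesis. In roots 3 of 10 rose, with ACX1 at 0.54 ± 0.08. OPR1 (1.21 ± 0.29) and OPR2 (1.16 ± 0.14), relatives of OPR3 that sit outside the peroxisome, rose in roots; neither passed in shoots.

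Genes that modify or inactivate jasmonates formed another list. In shoots 10 of 10 tested genes fell (median log2 -2.73), with AT3G11180 not tested, and in roots 5 of 10 rose (median 1.22). ST2A, a sulfotransferase of hydroxylated jasmonate, had 3.45, 6.20 and 7.71 CPM in opt3-2 shoots against 48.6, 23.2 and 42.9 CPM in WT shoots. In roots ST2A had 45.7, 35.7 and 44.7 CPM in opt3-2 against 7.43, 8.04 and 7.71 CPM in WT. It fell by 2.74 ± 0.31 in shoots and rose by 2.44 ± 0.29 in roots on the log2 scale. JRG21, annotated as jasmonate-regulated, rose in roots (log2 3.43 ± 0.39, edgeR adjusted p = 9.55e-05) to 26.1, 32.4 and 29.0 CPM, against 2.97, 2.61 and 2.51 CPM in WT. The methyltransferase gene JMT (-1.38 ± 0.16) and the amidohydrolase gene IAR3 (-1.26 ± 0.18) were among those that fell in shoots. The difference between tissues passed above 0 for 10 of 10, against 24.2% of all genes in that direction. Without WT shoot replicate 2, 10 of 10 still fell in shoots and 8 rose in roots.

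The 6 wound and jasmonate target genes beside VSP1 and VSP2 fell in shoots, 6 of 6, with a median log2 fold change of -2.73. TAT3, a tyrosine aminotransferase gene, had 8.50, 8.38 and 13.9 CPM in opt3-2 shoots and 162, 88.6 and 153 CPM in WT shoots. JR1, a jacalin-like lectin gene, had 109, 120.2 and 144 CPM in opt3-2 shoots and 452, 360 and 433 CPM in WT shoots. In roots 1 of the 6 rose, TAT3, with 18.5, 10.14 and 13.4 CPM in opt3-2 and 2.82, 1.95 and 1.78 CPM in WT.

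Among receptor, transcription factor and transporter genes, in shoots 1 of 9 rose (COI1, 0.28 ± 0.06) and 1 fell (NINJA, an adaptor of the JAZ repressors, -0.21 ± 0.05). In roots ABCG16, a transporter gene, rose (0.74 ± 0.10), and the factor genes MYC4 (-0.97 ± 0.08) and MYC3 (-0.36 ± 0.07) and COI1 (-0.36 ± 0.06) fell. Of 13 JAZ genes, 5 fell and 2 rose in shoots, and 2 rose and 1 fell in roots. The JAZ counts in roots and those higher in shoots were near or below the background shares. JAZ10 was at -4.47 ± 0.74 in shoots and 3.18 ± 0.64 in roots. The JAZ counts in roots turned on single libraries: 7 rose without WT root replicate 3 and 1 rose without opt3-2 root replicate 1. Without WT root replicate 3, 8 JAZ genes fell in shoots.

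**Figure D4:**
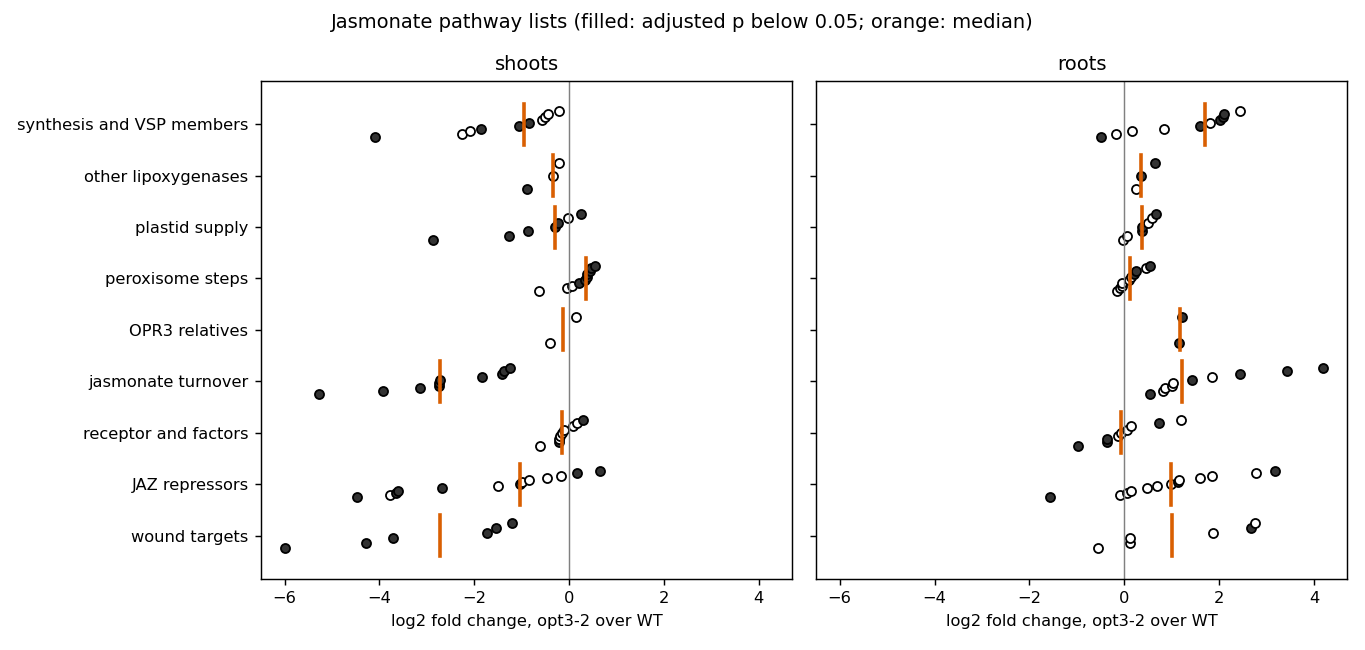
Log2 fold change of opt3-2 over WT for each tested gene of the jasmonate lists in shoots and roots; filled points had an edgeR adjusted p below 0.05 and orange bars are list medians. The turnover list has a median of -2.73 in shoots and 1.22 in roots, while the peroxisome list lies at 0.35 and 0.11.

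Genes with the most similar pattern were looked up by Pearson's r of log2 CPM among genes that averaged 5 CPM or more. Over all 12 libraries the 5 nearest to LOX2 were IQD24, ARGAH2, ECS1, MBP1 and XTH6, with r of 0.999 each, but 3060 of 16438 genes had r above 0.95, since the tissue difference is shared by many genes. The 5 nearest to VSP2 over 12 libraries were TSA1 (0.989), AT4G34480 (0.986), XTH24 (0.985), AT5G17700 (0.985) and AT5G18550 (0.984), and 135 genes had r above 0.95. Among the members VSP2 was nearest to AOC2 (0.9495), AOC1 (0.934) and LOX3 (0.920), and farthest from JAR1 (-0.55).

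Within the 6 shoot libraries the nearest to VSP2 were RBL1, MMZ1, AT4G29680, AT4G35905 and HIS4 (r of 0.997 to 0.998), and the nearest to LOX2 were AGP18, AT1G47900, PDLP2, MSS3 and AT1G69030 (0.997 to 0.999). With 6 libraries 624 of 14994 genes had r above 0.95 to VSP2 and 671 to LOX2. VSP2 had r of 0.955 with VSP1 and 0.946 with LOX2 there, and 0.725 with JAR1, the lowest among members. The 6 shoot libraries differ in genotype and depth, and the full set in tissue as well, so these values describe likeness only.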

How the data were processed

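The authors deposited raw counts of reads for 28775 genes in 36 columns, as whole numbers that were not normalized. The submitters' processing notes name TopHat2, edgeR and TAIR10, without versions; the counting tool, strand setting and annotation release are not given here. Columns were matched to samples by the file name in each description. The 3 technical replicates of a library were summed (median chi-square per degree of freedom of a member's counts among them 0.732), so n = 3 per group. Labels call the replicates biological; whether they were grown apart is not stated, so p-values measure the spread between these samples.

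Counts were tested in edgeR 4.0.16 (R 4.3.3). Low genes were dropped with filterByExpr, which kept 21887, and libraries were scaled with TMM. A group-means model over 12 libraries (8 residual degrees of freedom) was tested with the robust quasi-likelihood F test, two-sided, with Benjamini-Hochberg adjustment over all genes at 0.05. Each SE is the log2 fold change divided by the root of its F statistic. CPM use TMM-scaled sizes. Depth sets a floor of 3 counts per library, which covers counting error only. In simulated data of 21887 genes, 200 of them changed by 2 on the log2 scale, the test recovered 90.5% in shoots and 94.5% in roots. False calls numbered 9 and 13. In the real data 43.9% and 39% of genes were called, far more than were changed there. The recovery rates therefore need not hold for the members. Alternatives were other scalings, no filter, DESeq2 1.42.0, limma-voom (limma 3.58.1), fewer libraries or columns, and a replicate block.

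Gene names and coordinates are from RefSeq TAIR10.1, which matched 28009 codes; no coordinates were taken from the deposited table. Members and lists were chosen with earlier results of these data known. Named genes are all members, OPT3, up to 3 called genes per list and tissue with the smallest p (not all are printed), and the nearest genes to LOX2 and VSP2. MYC2, MYC3, PRX72 and CASP1 in roots, the AOC3 levels in roots, and the libraries set apart were picked after their values were seen.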

Additional observations from a re-analysis of the deposited data

Results flagged for a closer look

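The opt3-2 minus WT difference in roots was compared with that in shoots, and it differed for 7 of the 10 genes by the edgeR interaction test. Over all genes tested 48.2% passed, 24.2% with the root difference above the shoot difference, as in these 7. In log2 units the difference was 6.21 for VSP1, 4.52 for LOX3, 4.08 for LOX4, 3.13 for VSP2, 2.68 for OPR3, 2.59 for AOC1 and 2.103 for AOC2. In all 12 fits that leave out 1 library VSP1, LOX4, VSP2, OPR3 and AOC2 stayed called, while LOX3 was lost without opt3-2 root replicate 1 (edgeR adjusted p = 0.0561) and AOC1 without opt3-2 root replicate 3 (adjusted p = 0.0579). With limma-voom LOX3 (adjusted p = 0.0537) and AOC1 (adjusted p = 0.15) were lost as well. AOC1 was also lost with the first technical replicate alone (edgeR adjusted p = 0.318). With run suffixes 2 and 3 WT roots keep 1 library, so the spread of that group cannot be measured. There the difference was 2.93 for LOX3, 2.62 for LOX4, 1.99 for OPR3, 3.41 for AOC1 and 1.51 for AOC2. The fitted values of LOX3 and LOX4 rest on groups in which 1 library stands apart. WT shoot replicate 2 is low, and WT root replicate 3 and opt3-2 root replicate 1 are high.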

How the results depend on the processing

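Reusing only columns with run suffix 2 or 3, which leaves WT roots 1 library, gave 0 members higher and 0 lower in opt3-2 roots, 2 higher for the difference between tissues, 0 higher and 5 lower in WT roots against shoots, and 0 higher in opt3-2 roots against shoots. It called 3803 genes in roots and 6707 for the difference between tissues, and AOS turned to -0.63 in roots and -0.25 for that difference. The lone WT root library, replicate 3, is assumed to vary like the other groups. All opt3-2 columns carry run suffix 1, 2 or 3, and every other suffix occurs only in WT. WT root replicates 1 and 2 carry none of the opt3-2 suffixes, so for them run suffix and genotype cannot be told apart. What the suffixes stand for is not stated. In roots 2 members were higher with limma-voom and 2 with the first technical replicate alone. In opt3-2 roots against shoots 3 members were higher with library sizes alone, and 0 with no filter, with limma-voom and with the first technical replicate. In WT roots against shoots 0 were higher with only the 6 libraries compared.

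Leaving out single libraries gave 3 to 9 members lower in shoots, 0 to 1 higher in WT and 0 to 1 higher in opt3-2 roots against shoots. The other settings gave at most 6 members lower in shoots. The log2 fold change in roots ran from -0.34 to 0.062 for LOX2 and from -0.37 to 0.81 for AOS. For the lists only 3 libraries were left out, 1 per fit, a choice made after seeing the data. They were WT shoot replicate 2, opt3-2 root replicate 1 and WT root replicate 3. Over these 3 fits 1 to 3 other lipoxygenases and 0 to 1 OPR3 relatives were lower in shoots. For the difference between tissues 1 to 2 peroxisome genes were higher. There 0 genes of the plastid supply list were lower, against 1 with all libraries. Turnover genes higher in roots ran from 4 to 8. Receptor and factor genes ran from 1 to 2 lower in shoots, 1 to 2 higher in roots and 1 to 3 higher for the difference. JAZ genes ran from 6 to 8 lower in shoots, against 5 with all libraries. They ran from 1 to 7 higher in roots and 4 to 9 higher for the difference. The causes were not tested.

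Replicate numbers did not pair the libraries: deviations of same-numbered libraries correlated between -0.306 and 0.119 across genes. With 6 libraries per pair of groups, 2 (shoots), 0 (roots), 3 (opt3-2) and 2 (WT) correlated best with their own number. With a replicate block 5 members were lower in shoots, AOC2 being added (adjusted p = 0.0411), 4 higher and 1 lower in roots, and 7 higher for the difference. Library sizes alone moved the median of all genes to 0.366 in WT and 0.484 in opt3-2 roots against shoots, and the share of called genes that were higher in opt3-2 shoots was 35.4% with them, 54.9% with RLE and 48.5% with TMM. Depth limits AOC1 in roots, where a library held 3 to 35 counts.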
